A study of Mus musculus with 6 samples.

Results

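The TRIM genes encode tripartite motif proteins, a large family of mostly RING-type ubiquitin ligases, and 38 of them were described here across mouse alveolar macrophages with and without lipopolysaccharide (LPS) and vitamin D3 (VD3). The members were taken by symbol alone, as Trim followed by digits and at most 1 letter, with a sum of at least 30 counts over all 6 libraries. Of 23413 genes in the count table, 65 had such a symbol and 38 reached that sum. All 38 also passed the filter on low counts and were tested. Of the other 27, 13 had 0 counts in every library, among them Trim38, and 14 had between 1 and 14 counts in all.

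A TRIM protein carries a RING domain that binds an E2 enzyme charged with ubiquitin, 1 or more B-box domains, a coiled coil through which it pairs with a copy of itself, and often a C-terminal domain that picks the target. Many members with a C-terminal PRY-SPRY domain act in innate immunity: they attach ubiquitin to sensors and adaptors of viral nucleic acid, bind viral capsids or bind antibody-coated particles in the cytosol. Several of these genes are known to be induced by type I interferon, which macrophages release when LPS engages Tlr4 and its adaptor Ticam1.

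Alveolar macrophages are the resident phagocytes of the airspaces and were recovered by lavage from mice labelled WT. RNA was sequenced from 3 groups with 2 libraries each: control cells, cells given LPS at 100 ng/mL, and cells given LPS at that dose plus VD3 at 50 nM, the treated cells for 4 h in vitro. The sources used here do not give the age, sex or strain of the mice, how control cells were handled before lysis, or whether libraries within a group derive from different mice or cultures. The p-values thus reflect library-to-library spread alone, and that spread may be technical. If control cells were handled otherwise than treated cells, handling and treatment cannot be told apart in the comparisons with control.

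Library totals lay between 5022314 and 5465223 counts. The cells carried alveolar macrophage RNA: all 12 markers of that cell type were detected. Their levels did not stay alike between groups. With LPS, Siglec5 (an older symbol of Siglecf), Fabp5, Pparg, Mrc1 and Ear2 were called lower than in control (edgeR adjusted p under 0.05). Marco, Fabp4 and Car4 were called higher, and Chi3l3, Itgax, Cd68 and Lyz2 were not called. Of other cells, 1 of 6 epithelial markers (Sftpc), 2 of 6 lymphocyte markers (Cd3e and Nkg7) and 1 of 4 stromal and endothelial markers (Col3a1) were at 0 in every library, and the rest had few counts (Epcam 15, Krt8 21, Cd3d 38 and Cdh5 57 in all). Levels are given as CPM, counts scaled by library size and TMM factor. The epithelial list summed to 1.03 to 2.24 CPM in control, 2.02 to 3.28 CPM in LPS and 1.88 to 2.98 CPM in LPS + VD3, the lymphocyte list to 0.48 to 1.03, 1.43 to 1.82 and 0.627 to 3.18 CPM, and the stromal and endothelial list to 1.44 to 1.71, 2.46 to 3.43 and 1.79 to 1.88 CPM. The 3 monocyte markers summed to 9.07 to 11.4 CPM in control, 269 to 367 CPM in LPS and 181 to 205 CPM in LPS + VD3. Vcan averaged 3.55, 316 and 192 CPM, while Ccr2 went the other way, from 6.66 to 0.812 and 0.204 CPM (called lower with LPS, adjusted p 0.00028), and Ly6c2 had 0, 1.33 and 0.398 CPM. Ccr2 had 33 and 48 counts in control and no more than 5 in any treated library. It passed the filter on low counts through control, so its call could hardly have gone the other way. The 5 neutrophil genes with a row, of which Mpo, Elane and S100a9 were at 0, summed to 15.5 to 18.1, 18.9 to 24.8 and 27.6 to 33.9 CPM in the same order. S100a8 and Cxcr2 carried this sum, and both were called higher in LPS + VD3 against control (edgeR adjusted p 0.0239 and 0.0189). The part of such cells in the TRIM results was not tested, and in bulk RNA fewer cells of a type and less RNA per cell cannot be told apart. The LPS libraries were the least alike of the 3 pairs (Pearson's r of 0.972 over tested genes, against 0.993 for control and 0.985 for LPS + VD3), and their difference followed the GC content of the genes (Spearman's rho of 0.69 over genes, which are not independent replicates). LPS 1 also carries a sample title of another number series than the other 5 libraries.

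In control cells the TRIM genes spanned a wide range of levels. Per kb of exon, Trim29 stood highest, with 36.1 and 30 CPM per kb in the control libraries. It encodes a RING-less TRIM protein known to bind the NF-kB regulator NEMO in alveolar macrophages. Trim25 (24 and 23.2 CPM per kb) and Trim28 (23.5 and 22.7 CPM per kb) came next and did not differ beyond their spread, followed by Trim35 (16 and 14.5 CPM per kb). Trim45 and Trim30b were the lowest of the 38, with group means of 0.279 and 0.0106 CPM per kb. After LPS the order of levels was another one: Trim25 averaged 63.8 and Trim30a 60 CPM per kb, ahead of Trim35 with 25.3, Trim29 with 24.6 and Trim30d with 23.7, which had ranked 20 of 38 in control.

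LPS raised 14 of the 38 TRIM genes and lowered 3 (edgeR quasi-likelihood test, Benjamini-Hochberg adjusted p under 0.05). The raised genes were Trim12a, Trim12c, Trim13, Trim14, Trim21, Trim25, Trim26, Trim30a, Trim30b, Trim30d, Trim34a, Trim35, Trim36 and Trim56, and the lowered ones Trim16, Trim37 and Trim44. Among all 10724 genes tested, 15.7% were higher and 16.2% lower, so that the 36.8% of TRIM genes that rose lay above the share of all genes and the 7.89% that fell lay below it. The median log2 fold change was 0.26 for the TRIM genes and 0.01 for all genes tested. The summed level of the 38 was 1035 and 999.4 CPM in control, 1735 and 1673 CPM in LPS, and 1498 and 1510 CPM in LPS + VD3, and Trim25 alone made up 13.3% to 13.4% of it in control and 20.8% to 22.3% in LPS. Without a scaling factor the median of all genes shifted to -0.29, and 1086 genes were called higher and 3056 lower in place of 1679 and 1732. The TRIM counts were then 11 higher and 8 lower, so the count of lowered members depended on the scaling.

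**Figure D1:**
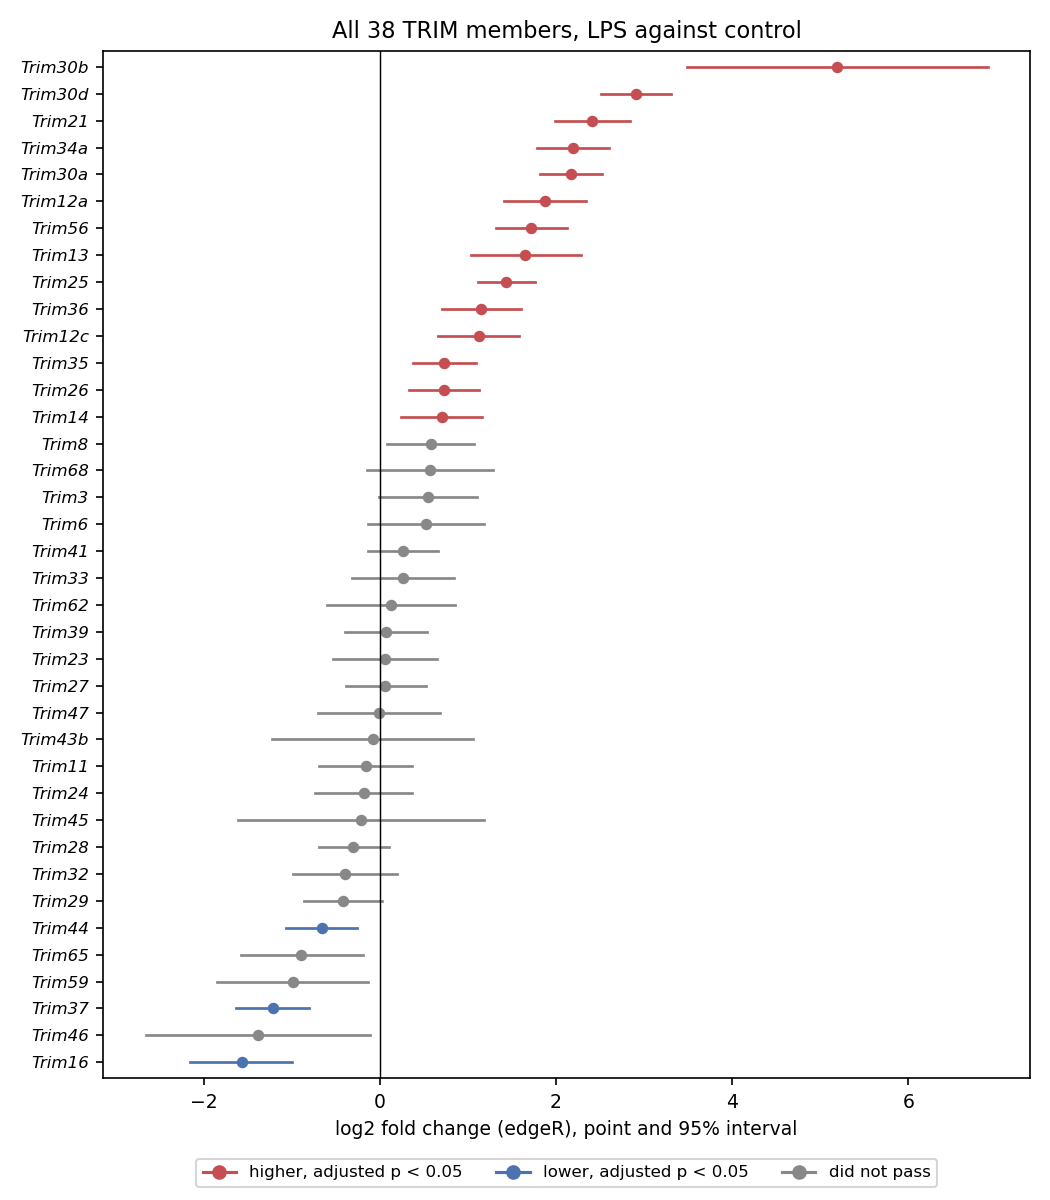
Log2 fold change of each of the 38 TRIM genes in LPS against control, from the edgeR fit, with its 95% interval; red points rose, blue points fell and grey points did not pass. The 14 raised genes run from 0.70 (Trim14) to 5.19 (Trim30b), and the 3 lowered ones from -0.66 (Trim44) to -1.57 (Trim16).

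Among the TRIM proteins that act on cytosolic sensors, Trim25 had the most counts. Trim25 (chromosome 11, 88999376 to 89020293, plus strand, mm10) is the ligase best known for attaching ubiquitin to RIG-I, the RNA sensor encoded by Ddx58, and is a cofactor of the antiviral protein ZAP. Its level was 138 and 133 CPM in the control libraries, 386 and 347 CPM in the LPS libraries, and 318 and 295 CPM in the LPS + VD3 libraries. Both LPS libraries lay above both controls, and the LPS + VD3 libraries lay between the other groups without overlap. Trim25 rose by a log2 fold change of 1.43 ± 0.15 with LPS (SE of the fit, as for every fold change here, with n = 2 libraries per group; adjusted p 4.5e-05).

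Trim21 (chromosome 7, 102557921 to 102565486, minus strand) encodes a cytosolic Fc receptor that binds antibody on incoming particles and sends them to the proteasome. It had 10.6 and 9.92 CPM in control, 57.8 and 51.7 CPM in LPS, and 39.3 and 35.8 CPM in LPS + VD3. The 3 groups did not overlap, and LPS was the highest. Its rise with LPS was 2.41 ± 0.19 on the log2 scale (adjusted p 7.71e-06).

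Trim56, a ligase of antiviral defence that acts in STING and Tlr3 signalling, had 13 and 12.3 CPM in control, 42.4 and 41.2 CPM in LPS, and 33.9 and 32.8 CPM in LPS + VD3. The LPS libraries were the highest and no group overlapped another. Its log2 fold change with LPS was 1.72 ± 0.18 (adjusted p 5.85e-05). Trim26, which is known to drive turnover of Irf3 in the nucleus, had 37.1 and 37.8 CPM in control, 69.3 and 55.1 CPM in LPS, and 67.3 and 77.7 CPM in LPS + VD3. The treated groups overlapped each other and lay above control, with a log2 fold change of 0.73 ± 0.18 for LPS (adjusted p 0.0106).

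Trim14 lacks a RING domain and serves as an adaptor at Mavs on mitochondria. It had 17.1 and 14.1 CPM in control, 27.7 and 23 CPM in LPS, and 17.6 and 18.1 CPM in LPS + VD3. LPS libraries were above all others, and the log2 fold change with LPS was 0.70 ± 0.21 (adjusted p 0.026). Of the Trim14 exon bases, 38% overlap genes on the other strand, and the strand setting of the counting is not known here. This call was the least stable of the 14: its adjusted p was 0.0638 by DESeq2, 0.156 without a scaling factor, 0.0963 and 0.273 without control 1 and control 2, 0.0593 without LPS 1 and 0.0537 without LPS + VD3 2. The calls of Trim26 and Trim35 were also lost when either control library was left out (adjusted p 0.111 and 0.1 for Trim26, 0.0538 and 0.112 for Trim35) and without a scaling factor (0.0809 and 0.0541).

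**Figure D2:**
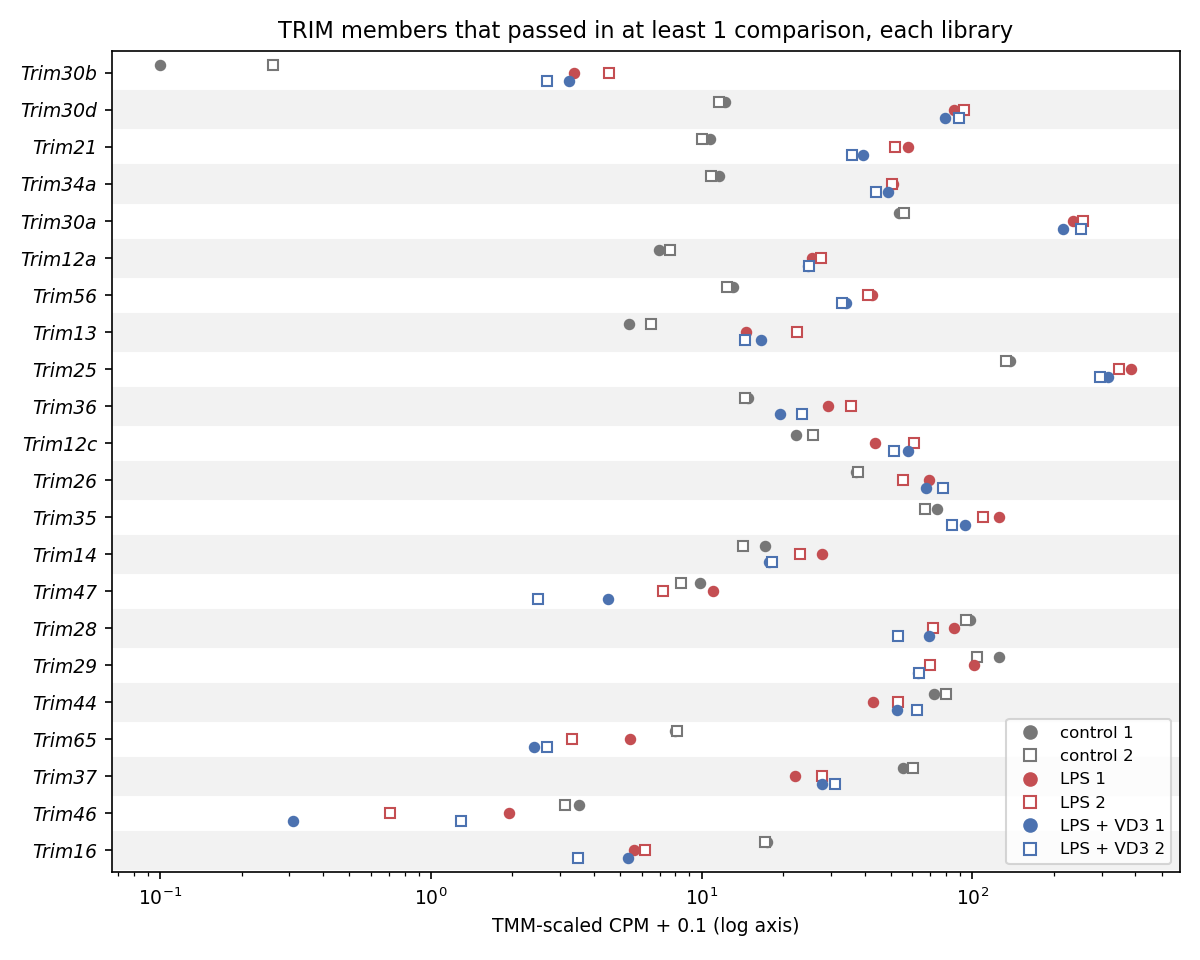
TMM-scaled CPM plus 0.1 on a log axis for the 22 TRIM genes that passed in at least 1 comparison; grey marks control, red LPS and blue LPS + VD3, with a filled circle for library 1 and an open square for library 2. For the raised genes from Trim30b down to Trim14, both LPS libraries lie to the right of both controls, and Trim21, Trim25, Trim56, Trim36 and Trim35 are among the genes with both LPS + VD3 libraries between those groups.

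On chromosome 7, the cluster from Trim6 to Trim30d has 7 of the 38 members within 289057 bases, and these were the only tested genes of the span. LPS raised 6 of the 7 (85.7%), Trim34a, Trim12a, Trim12c, Trim30b, Trim30a and Trim30d. Outside the cluster, 8 of 31 members rose (25.8%) and 3 fell (9.68%). Of all genes tested, 15.7% rose and 16.2% fell. The median log2 fold change was 2.17 in the cluster and 0.06 outside it. Its members are relatives of primate TRIM5, a factor that binds retroviral capsids, and of Trim30a.

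Trim30a (chromosome 7, 104409025 to 104465193, minus strand) has been described as a brake on NF-kB signalling that acts on Tab2 and Tab3. It had 53.7 and 56 CPM in control, 236 and 257 CPM in LPS, and 216 and 252 CPM in LPS + VD3. Treated libraries lay far above control and overlapped each other, with a log2 fold change of 2.17 ± 0.16 for LPS (adjusted p 4.51e-06). Its neighbour Trim30d (104470014 to 104507849, minus strand), known to restrict tick-borne flaviviruses, had 12.1 and 11.5 CPM in control, 85.7 and 92.7 CPM in LPS, and 79 and 89 CPM in LPS + VD3. Again the treated groups overlapped each other and not the control, and the log2 fold change with LPS was 2.91 ± 0.18 (adjusted p 1.53e-06).

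Trim30b (104355382 to 104369884, minus strand) was nearly silent in control, with counts of 0 and 1. It had 16 and 22 counts in LPS and 15 and 13 counts in LPS + VD3, or 3.28 and 4.44 CPM and 3.14 and 2.58 CPM. The ratio of LPS to control was 46.8, with a 95% interval of 7.9 to 1890 that covers counting error only. The fit called it higher (adjusted p 0.000321), and its log2 fold change of 5.19 depends on the prior count of the fit. With 66 of its 67 counts outside control, Trim30b reached the minimum sum for members and the filter through the groups where it is high, so its call could not have gone the other way; without it, 13 of 37 members rose (35.1%), and 5 of 6 in the cluster.

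Trim34a (104244457 to 104262234, plus strand) had 11.5 and 10.7 CPM in control, 51 and 50.5 CPM in LPS, and 48.5 and 43.9 CPM in LPS + VD3, a log2 fold change with LPS of 2.19 ± 0.18 (adjusted p 1.22e-05). Trim12a had 6.84 and 7.52 CPM in control, 25.4 and 27.5 CPM in LPS, and 24.7 and 24.8 CPM in LPS + VD3 (1.88 ± 0.21, adjusted p 7.96e-05). Trim12c had 22.2 and 25.6 CPM in control, 43.4 and 60.8 CPM in LPS, and 57.7 and 51.3 CPM in LPS + VD3 (1.12 ± 0.21, adjusted p 0.00218). In each of these TRIM5 relatives the control libraries were the lowest and overlapped no treated library. Trim6, at the left end of the cluster, was not called with LPS (0.52 ± 0.29, adjusted p 0.209). It had 5.82 and 4.8 CPM in control, 6.56 and 8.69 CPM in LPS, and 9.83 and 7.75 CPM in LPS + VD3. In LPS + VD3 against control, Trim6 did not pass either (0.73 ± 0.29, adjusted p 0.0773). It did pass there under other settings, such as a fit to the compared libraries alone.

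The sources used here do not say how reads that match several of these genes were counted. Of all 50-base words in the annotated transcripts, 39.8% for Trim34a, 33% for Trim12c, 10.4% for Trim12a, 7.49% for Trim30d and 5.98% for Trim30a also occur in transcripts of another gene. The split of reads between those genes is uncertain to that extent, and 23.5% of the Trim34a exon bases also overlap a gene on the other strand.

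**Figure D3:**
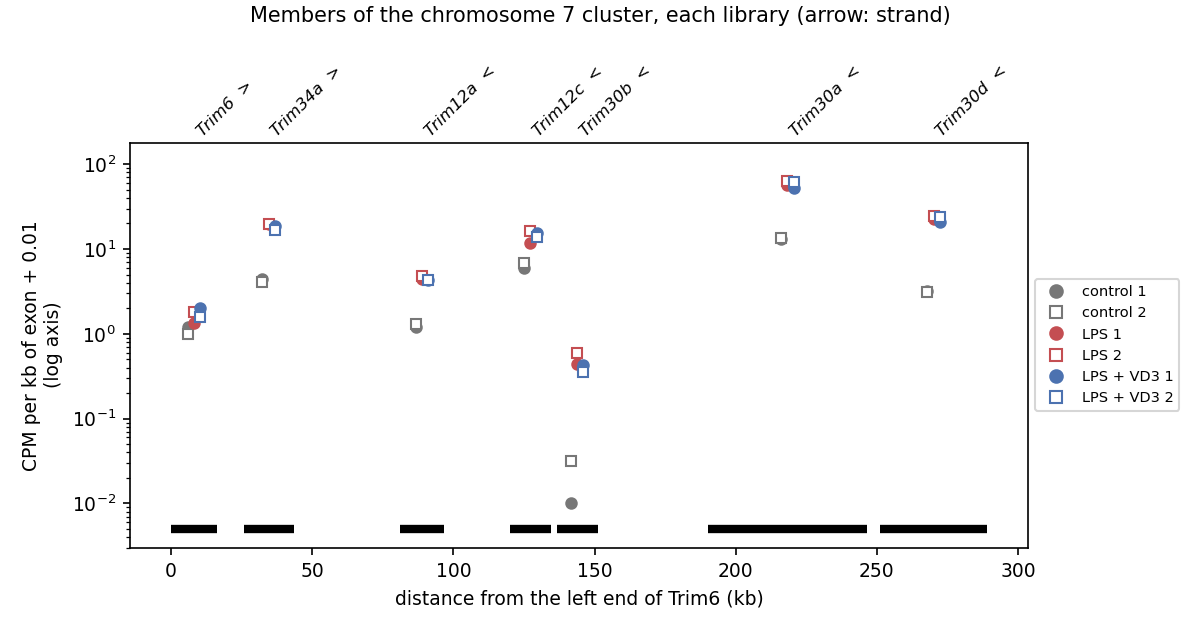
Level of the 7 cluster members in each library, as CPM per kb of exon plus 0.01 on a log axis, at the middle of each gene along the cluster in kb from the left end of Trim6 (black bars are the genes, arrowheads their strand). Grey control points lie under the red LPS and blue LPS + VD3 points at all members from Trim34a to Trim30d, and the 3 groups lie closest together at Trim6.

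The sequences near the start sites of these genes were searched for 3 motif cores on both strands: that of the interferon-stimulated response element (ISRE; GAAA, any 2 bases, GAAA), that of the gamma-activated site (GAS; TTC, any 3 bases, GAA) and that of NF-kB sites (GGG, any 5 bases, CC). The ISRE is the element through which interferon regulatory factors act on interferon-stimulated genes. RefSeq windows of 300 bases (250 before to 50 after a start, GRCm38.p6) were matched by symbol for 27 of the 38 members. The ISRE core lay in a window of 7 of these 27 (25.9%), against 3.99% of 27025 genes with a window. The 7 were Trim12a, Trim12c, Trim21, Trim26, Trim30a, Trim30d and Trim34a, all of them raised by LPS, and 5 of them lie in the chromosome 7 cluster. Of the 20 members with a window and no ISRE core, 4 rose (20%) and 2 fell (10%). Among all tested genes with a window, 28.7% of the 314 with an ISRE core rose and 14% fell, and 14.9% of the 7784 without it rose and 16.1% fell. The GAS core was found in 2 members (7.41%, against 9.55% of all genes), and the much commoner NF-kB core in 19 (70.4%, against 53.5%). Of the 19 members with an NF-kB core, 7 rose with LPS (36.8%) and 1 fell (5.26%). Of the 8 with a window and no NF-kB core, 4 rose (50%) and 1 fell (12.5%), next to 15.7% and 16.2% of all genes tested. No match of 1 motif overlapped a match of another.

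Stretches around the match are shown for the 5 raised members with the highest LPS fold change that held a motif. They were picked by motif and fold change, so that each holds a match is no result. All are on chromosome 7 of mm10, read 5′ to 3′ along the gene's strand, with the motif in capitals. Positions count from the RefSeq start, with +1 for the start itself and -1 for the base before it. Trim30b shows an NF-kB core at chr7:104358671-104358700 (minus strand, positions -54 to -25; this RefSeq start lies inside the annotated Trim30b gene), and the other 4 show the ISRE core or its reverse complement (TTTC, any 2 bases, TTTC): Trim30d at chr7:104507850-104507925 (minus, -76 to -1), Trim30a at chr7:104465194-104465264 (minus, -71 to -1), Trim21 at chr7:102565447-102565476 (minus, 7 to 36) and Trim34a at chr7:104244457-104244486 (plus, 1 to 30).
Trim30b: ccccagtacaGGGGATTGCCagggatcaga
Trim30d: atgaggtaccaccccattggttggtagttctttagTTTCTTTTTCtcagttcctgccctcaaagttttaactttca
Trim30a: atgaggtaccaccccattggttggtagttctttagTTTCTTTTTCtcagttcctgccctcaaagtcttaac
Trim21: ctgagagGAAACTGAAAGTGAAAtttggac
Trim34a: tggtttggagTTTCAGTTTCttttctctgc
The Trim30d and Trim30a stretches were identical at 70 of the 71 bases compared, and each also holds an NF-kB core match in its lower-case part. Trim21 held 2 overlapping ISRE cores. A match is a string of letters and does not show that a factor was bound.

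The remaining raised members lie elsewhere in the genome. Trim13, a ligase anchored in the membrane of the endoplasmic reticulum that takes part in the disposal of misfolded proteins, had 5.3 and 6.4 CPM in control, 14.5 and 22.4 CPM in LPS, and 16.5 and 14.3 CPM in LPS + VD3. Its treated libraries overlapped each other and stood clear of control, with a log2 fold change of 1.65 ± 0.28 for LPS (adjusted p 0.00128). Trim36, a microtubule-associated ligase, had 14.7 and 14.4 CPM in control, 29.3 and 35.4 CPM in LPS, and 19.4 and 23.3 CPM in LPS + VD3. The groups did not overlap, LPS was the highest and the log2 fold change was 1.15 ± 0.20 (adjusted p 0.00165). Trim35, reported to act on Irf7, had 73.9 and 66.9 CPM in control, 125 and 109 CPM in LPS, and 94.1 and 84.3 CPM in LPS + VD3. It showed the same order of groups with a smaller step, 0.73 ± 0.16 (adjusted p 0.00565).

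The 3 TRIM genes that fell with LPS were Trim16, Trim37 and Trim44. Trim16, a RING-less protein that takes part in the autophagy of damaged lysosomes, had 17.4 and 17.1 CPM in control, 5.53 and 6.06 CPM in LPS, and 5.23 and 3.38 CPM in LPS + VD3. Both treated groups lay far under control, with a log2 fold change of -1.57 ± 0.26 for LPS (adjusted p 0.00105). Trim37, a ligase of peroxisomes and centrosomes, had 55.3 and 60.3 CPM in control, 22.1 and 27.7 CPM in LPS, and 27.8 and 31 CPM in LPS + VD3. It too was lower in all treated libraries (-1.21 ± 0.19, adjusted p 0.000669). Trim44, also without a RING and known for a deubiquitinase-like zinc finger, had 71.8 and 79.9 CPM in control, 43 and 53.1 CPM in LPS, and 52.7 and 62.2 CPM in LPS + VD3. The LPS libraries lay under both controls (-0.66 ± 0.18, adjusted p 0.0176), and this call was lost without control 1 (adjusted p 0.0822) or control 2 (adjusted p 0.184). The count of lowered members was 3 with all libraries and between 2 and 6 when 1 library was left out, with 6 without LPS 1 (Trim29, Trim46 and Trim65 were added).

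Members were classed by textbook knowledge, by C-terminal domain or, where they lack a RING, in a class of their own. The 18 members classed as PRY-SPRY held 8 of the 14 raised genes, with a median log2 fold change of 0.55. That was 44.4% of the class, against 15.7% of all genes, and Trim12c, Trim30a, Trim30d and Trim34a among them lie in the chromosome 7 cluster. The class held none of the 3 lowered genes. This depends on the classing, since RING-less members were set apart whatever their C-terminal domain. It also depends on the setting, since Trim65 of this class was near the threshold (-0.89, adjusted p 0.0531). Trim65 was called lower without a scaling factor, with the replicate block and with GC offsets (adjusted p 0.0135, 0.042 and 0.0185). The 4 RING-less members were Trim14, which rose, Trim16 and Trim44, which fell, and Trim29, which was not called with LPS. None of the 3 PHD-bromodomain members, which act on chromatin and transcription (Trim24, Trim28 and Trim33), was called with LPS; their log2 fold changes ran from -0.30 to 0.26.

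Members that passed in no comparison numbered 16: Trim3, Trim6, Trim8, Trim11, Trim23, Trim24, Trim27, Trim32, Trim33, Trim39, Trim41, Trim43b, Trim45, Trim59, Trim62 and Trim68. The 4 of them with the highest mean CPM were Trim8, Trim33, Trim27 and Trim41. Trim8, reported to act in cytokine signalling, had 42.3 and 37.4 CPM in control, 69.9 and 48.9 CPM in LPS, and 37.4 and 51.7 CPM in LPS + VD3. Its LPS libraries differed widely from each other (0.58 ± 0.22, adjusted p 0.0768), and it passed without LPS 2 (0.81, adjusted p 0.0031). Trim33, a transcriptional cofactor of Smad signalling, had 35.2 and 37.6 CPM in control, 30.1 and 57.2 CPM in LPS, and 50 and 52.1 CPM in LPS + VD3. The LPS pair spanned both other groups, and its log2 fold change of 0.26 ± 0.26 went to 0.63 without LPS 1 (adjusted p 0.00601) and to -0.28 without LPS 2. Trim27, a ligase reported to act on kinases of innate signalling, ranged from 24.6 to 33.4 CPM over the 6 libraries (0.06 ± 0.20), and Trim41, a nuclear and cytoplasmic ligase, from 24.2 to 30.7 CPM (0.26 ± 0.18). Neither was called in any comparison, and without a scaling factor Trim27, Trim33 and Trim41 had log2 fold changes of -0.23, -0.04 and -0.04.

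Adding VD3 to LPS moved no TRIM gene past the threshold: 0 of 38 were higher and 0 lower by edgeR, and DESeq2 also called 0. Of all genes tested, 2.25% were higher and 1.59% lower in LPS + VD3 against LPS, so that a count of 0 among 38 is near the share of all genes. At an unadjusted p under 0.05, 7 members (18.4%) were found, all of them lower, against 22.1% of all genes in either direction. These were Trim3, Trim14, Trim21, Trim35, Trim36, Trim47 and Trim68, and their adjusted p ran from 0.0713 to 0.195. The median log2 fold change was -0.22 for the TRIM genes and 0 for all genes, and 27 of the 38 were below 0.

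The 14 members raised by LPS had log2 fold changes with VD3 between -0.60 (Trim36) and 0.22 (Trim26). These genes were picked out by their high values in the same LPS libraries that serve as the reference here, so the sign of their values is not read as an effect of VD3. Trim21 had a log2 fold change of -0.54 ± 0.17 with a 95% interval of -0.93 to -0.16 (adjusted p 0.116), and both of its LPS + VD3 libraries lay under both LPS libraries. The log2 fold change of Trim25 was -0.26 ± 0.14, with an interval of -0.58 to 0.06 (adjusted p 0.306). Trim30a had -0.08 ± 0.15, with an interval of -0.41 to 0.26 (adjusted p 0.792), and this value was 0.03 without LPS + VD3 1. These intervals leave room for a fall of Trim21 by up to 0.93 and of Trim30a by up to 0.41, and a p above the threshold does not show that the levels were equal.

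The largest difference with VD3 was that of Trim47, a PRY-SPRY ligase. It had 9.75 and 8.32 CPM in control, 10.9 and 7.07 CPM in LPS, and 4.39 and 2.39 CPM in LPS + VD3. Both LPS + VD3 libraries were under all 4 others, with a log2 fold change of -1.40 ± 0.37 against LPS (adjusted p 0.0713). With the replicate number as a block, the same fold change passed (adjusted p 0.0157) and Trim47 was the 1 member called. The count of 0 depended also on the LPS libraries and, with 2 lower members (Trim21 and Trim36), on GC offsets. Without LPS 2, 8 members were called lower in LPS + VD3 than in LPS (Trim3, Trim8, Trim14, Trim21, Trim28, Trim29, Trim35 and Trim47) and 1, Trim33, was called higher, while 1865 of all genes were called higher and 1805 lower. Without LPS 1, Trim36 alone was called lower.

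**Figure D4:**
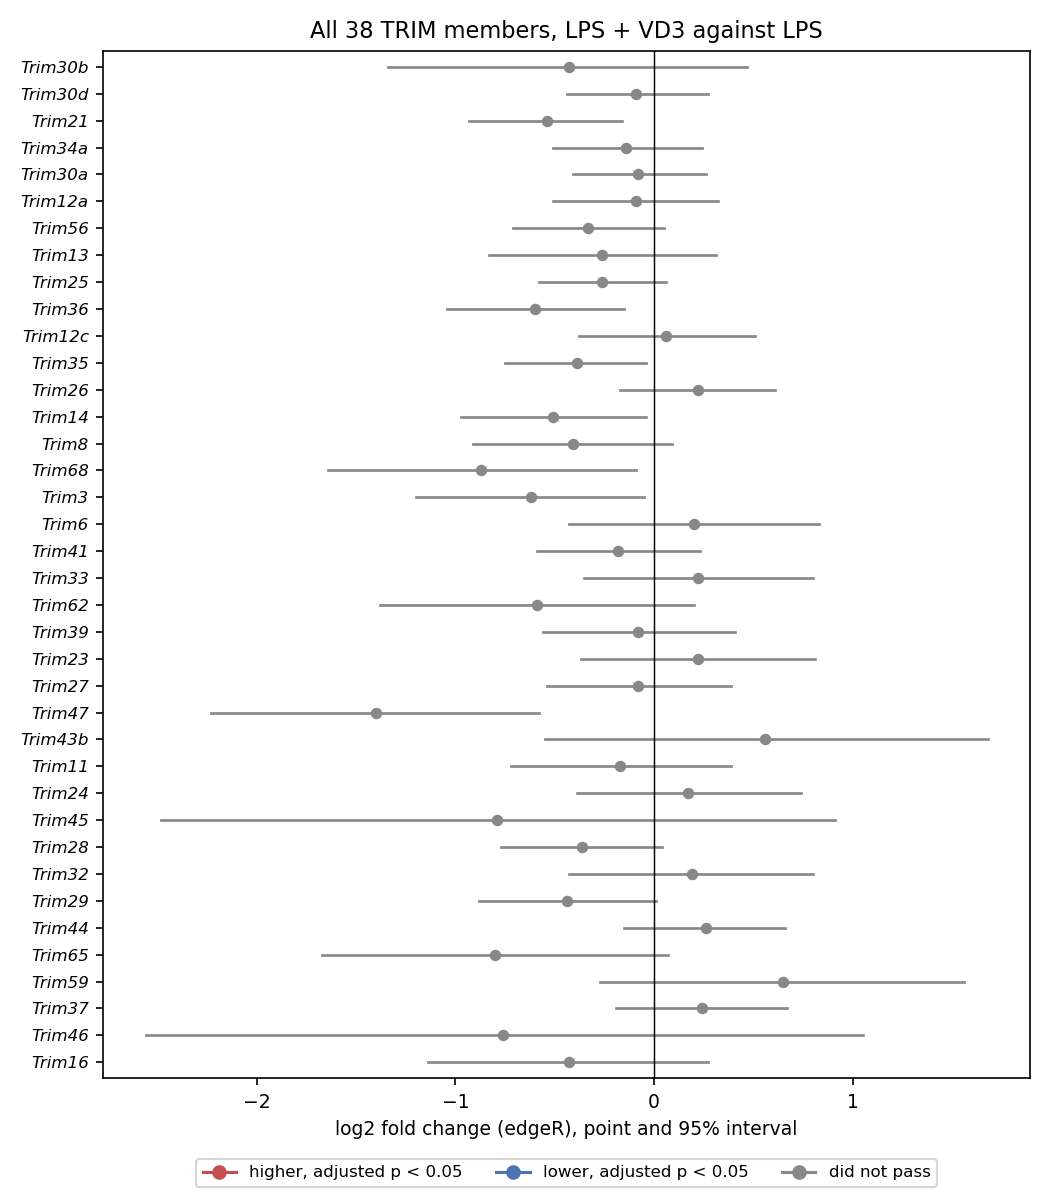
Log2 fold change of each of the 38 TRIM genes in LPS + VD3 against LPS with its 95% interval, in the order of their LPS fold changes from the highest at the top. All points are grey, since none passed; 27 lie left of 0 and Trim47 lies farthest left, at -1.40.

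Against control, LPS + VD3 raised 11 TRIM genes (28.9%) and lowered 7 (18.4%), where 17.7% of all genes were higher and 17.3% lower. The share of raised members was thus above that of all genes, and the share of lowered ones was near it. The median was 0.12. LPS alone and LPS + VD3 are set against the same control libraries here, so the similar values of both comparisons are not independent. Without a scaling factor the median of all genes was -0.32, with 1171 genes higher and 3351 lower in place of 1895 and 1854, and the TRIM counts were 11 and 8.

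The 11 raised genes were those raised by LPS except Trim14, Trim35 and Trim36. Trim21 stood 1.87 ± 0.19 above control (adjusted p 4.47e-05), Trim25 1.17 ± 0.15 (adjusted p 0.000162) and Trim30a 2.09 ± 0.16 (adjusted p 5.34e-06). For Trim30b the ratio to control was 34.5, with a 95% counting interval of 5.7 to 1410. The 3 exceptions had log2 fold changes of 0.19 ± 0.21 (Trim14, adjusted p 0.508), 0.34 ± 0.16 (Trim35, adjusted p 0.126) and 0.55 ± 0.21 (Trim36, adjusted p 0.0641), each called in LPS alone; their difference between LPS + VD3 and LPS did not pass, with adjusted p of 0.194, 0.189 and 0.131. Trim35 and Trim36 did pass against control when LPS 1 (adjusted p 0.0477 and 0.0232) or LPS 2 (0.0312 and 0.0179) was left out of the fit.

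Of the 7 lowered genes, Trim16 (-2.01 ± 0.27, adjusted p 0.000295) and Trim37 (-0.97 ± 0.18, adjusted p 0.00233) had also fallen with LPS alone. Trim44 did not pass (-0.40 ± 0.18, adjusted p 0.106), though it did without LPS 1 (0.0147) or LPS 2 (0.0221). The other 5 were called in this comparison and not in LPS against control, a difference between comparisons that was tested only as LPS + VD3 against LPS, where none passed. In LPS against control, 4 of these 5 passed under another setting. Trim29, Trim46 and Trim65 passed with GC offsets, and Trim65 with the replicate block (adjusted p 0.042). Without a scaling factor, Trim28, Trim29 and Trim65 passed (adjusted p 0.025, 0.0175 and 0.0135), as did Trim46. Trim28, the KAP1 corepressor that silences endogenous retroviruses together with Setdb1, had 97.9 and 94.6 CPM in control, 85.2 and 71.5 CPM in LPS, and 68.8 and 53.1 CPM in LPS + VD3. Its groups stood in that order without overlap, at -0.66 ± 0.18 against control (adjusted p 0.0168). Trim29 had 125 and 104 CPM in control, 101 and 69.7 CPM in LPS, and 62.7 and 63.6 CPM in LPS + VD3. It followed the same order (-0.86 ± 0.20, adjusted p 0.00768).

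Trim65, a ligase for the RNA sensor MDA5 that Ifih1 encodes, had 7.87 and 8 CPM in control, 5.33 and 3.23 CPM in LPS, and 2.3 and 2.58 CPM in LPS + VD3. The groups did not overlap (-1.69 ± 0.35, adjusted p 0.00381). Trim47, with the values given above, stood at -1.42 ± 0.36 against control (adjusted p 0.0125); it shares part of its exons with Trim65 on the same strand, so reads there cannot be assigned to 1 of the 2 genes. Trim46, known from the axon initial segment of neurons, had 3.42 and 3.04 CPM in control, 1.84 and 0.606 CPM in LPS, and 0.209 and 1.19 CPM in LPS + VD3, from 58 counts in all. Its treated libraries were all under control (-2.14 ± 0.64, adjusted p 0.0266). Control held 20 and 19 of these counts, and no treated library had more than 9. Trim46 thus reached the minimum sum for members and the filter through control, where it is high. Its call, which is among the 7 lowered ones, could hardly have gone the other way. The count of 7 fell to 3 without control 1 and to 4 without LPS + VD3 2. The call of Trim28 was lost without control 1, control 2 or LPS + VD3 2 (adjusted p 0.128, 0.0993 and 0.137), that of Trim29 without control 1 or either LPS + VD3 library (0.0909, 0.0681 and 0.0655), that of Trim47 without control 1 or LPS + VD3 2 (0.0759 and 0.123), and that of Trim46 without either control or LPS + VD3 1 (0.1, 0.0711 and 0.175) and by DESeq2 (0.0814).

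Other TRIM proteins that carry symbols of their own were few: of Pml (TRIM19), Mid1 (TRIM18), Mefv and Mid2, only Pml and Mid1 had counts enough to be tested. Mid1, a microtubule-associated ligase, had 30.3 and 29.6 CPM in control, 25 and 38.4 CPM in LPS, and 60 and 65.2 CPM in LPS + VD3. It was the TRIM protein gene called higher with VD3 (0.98 ± 0.21 against LPS, adjusted p 0.0331), a call lost without either control (adjusted p 0.0729 and 0.0724) or either LPS + VD3 library (0.159 and 0.32), with a filter of 1 count (0.119) and with the compared libraries alone (0.0694). Its value against control with LPS alone was 0.08 ± 0.22, and -0.26 without LPS 2. Pml, the organiser of nuclear bodies, had 20.4 and 26.9 CPM in control, 48.6 and 25.7 CPM in LPS, and 57.9 and 66.8 CPM in LPS + VD3. Its level in LPS 2 lay between the control values, and that in LPS 1 lay above both. Pml passed in LPS + VD3 against control (1.40 ± 0.28, adjusted p 0.00331), a call lost without LPS + VD3 2. It was also called in LPS against control without LPS 2 (adjusted p 0.000627) and in LPS + VD3 against LPS without LPS 1 (adjusted p 0.00188).

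The pathways in which TRIM proteins work were described by lists of genes. Of 13 genes of RIG-I signalling around Trim25, LPS raised 10 (76.9%, against 15.7% of all genes) and lowered 1 (median log2 fold change 1.69). The antiviral modifier Isg15 rose by 8.23 ± 0.40, the transcription factor Irf7 by 6.20 ± 0.41, Ifih1 by 5.24 ± 0.20 and Ddx58 by 3.42 ± 0.18. Isg15 had 6 and 12 counts in control and Irf7 had 7 and 6. Both passed the filter through the treated groups, so their calls, which are among the 10, could hardly have gone the other way. The 1 that fell was Mavs, the adaptor below both sensors, at -0.61 ± 0.17 (adjusted p 0.0206, or 0.115 and 0.204 without control 1 and control 2; named after its value was seen). With VD3 added, 0 of the 13 were higher and 1, Irf7, was lower (-1.15 ± 0.27, adjusted p 0.0461), while without LPS 2 the counts were 3 and 6, and 3 were lower with the replicate block. The Irf7 levels were 106 and 55.6 CPM in LPS and 37.4 and 35.4 CPM in LPS + VD3, and the call was lost without either control (adjusted p 0.0628 and 0.0615), without either LPS + VD3 library (0.202 and 0.405) and, at -0.62, without LPS 1 (0.0538).

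Of 8 genes from the interferon receptor to ISGF3, LPS raised 7 (87.5%) and lowered 0, with a median of 1.35. Usp18, the brake on the receptor, rose by 7.26 ± 0.54 from counts near 0, the ISGF3 subunits Irf9 and Stat2 by 2.76 ± 0.21 and 2.72 ± 0.19, and the receptor chain Ifnar1 by 1.37 ± 0.15. With 4 and 0 counts in control, Usp18 passed the filter through the treated groups. Its call, which is among the 7, could thus not have gone the other way. VD3 moved 0 of the 8 past the threshold against LPS, but 4 were lower without LPS 2 and 1 by DESeq2 or with the replicate block. Of 16 ubiquitin E1 and E2 enzymes that work with TRIM ligases or on Isg15, LPS raised 3 and lowered 0. The 18.8% raised is near the 15.7% of all genes, and the counts were 6 raised without LPS 1 or with GC offsets and 2 lowered without LPS 2 or without a scaling factor. With VD3 against LPS, 0 of the 16 were called, against 7 higher and 2 lower without LPS 2. Ube2l6 (2.25 ± 0.19) and Uba7 (1.98 ± 0.25), the pair that conjugates Isg15, rose the most, and Uba1, the main ubiquitin E1, rose by 0.53 ± 0.14, a call lost without either control (adjusted p 0.131 and 0.218) and without a scaling factor (0.207).

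Of 17 tested partners of the Trim28 corepressor, 2 rose and 2 fell with LPS, 11.8% each and below the 15.7% and 16.2% of all genes. The count of lowered ones was 5 without LPS 2, 4 with the replicate block or GC offsets and 8 without a scaling factor. The heterochromatin proteins Cbx5 (-2.07 ± 0.18) and Cbx3 (-1.78 ± 0.19) fell, while Morc3 (0.61 ± 0.16) and the remodeller Chd4 (0.49 ± 0.15) rose. Both calls were lost without control 1 or control 2 (adjusted p 0.187 and 0.111 for Morc3, 0.265 and 0.213 for Chd4) and without a scaling factor (0.136 and 0.346), and that of Chd4 also without LPS 2 or either LPS + VD3 library (0.0503, 0.0619 and 0.0699). Of 15 targets and partners of TRIM proteins in Tlr4, STING and Fc sensing, 4 rose (26.7%) and 2 fell (13.3%), and 8 rose without LPS 1 and 7 with GC offsets. The rises included the Trim30a target Tab2 (1.13 ± 0.20), the Tlr4 adaptor Ticam1 (1.31 ± 0.26) and the repressor Bcl6 (1.27 ± 0.23). Irf8 (-1.48 ± 0.20) and Tmem173, which encodes STING (-0.78 ± 0.19, with an adjusted p of 0.058 and 0.134 without control 1 and control 2; named after its value was seen), fell. VD3 against LPS called 0 of the 17 and 0 of the 15. Without LPS 2, 5 of the 17 were higher, and 3 of the 15 were higher and 2 lower; DESeq2, the replicate block and GC offsets gave 2 to 3 calls among the 17 and 3 to 4 among the 15.

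**Figure D5:**
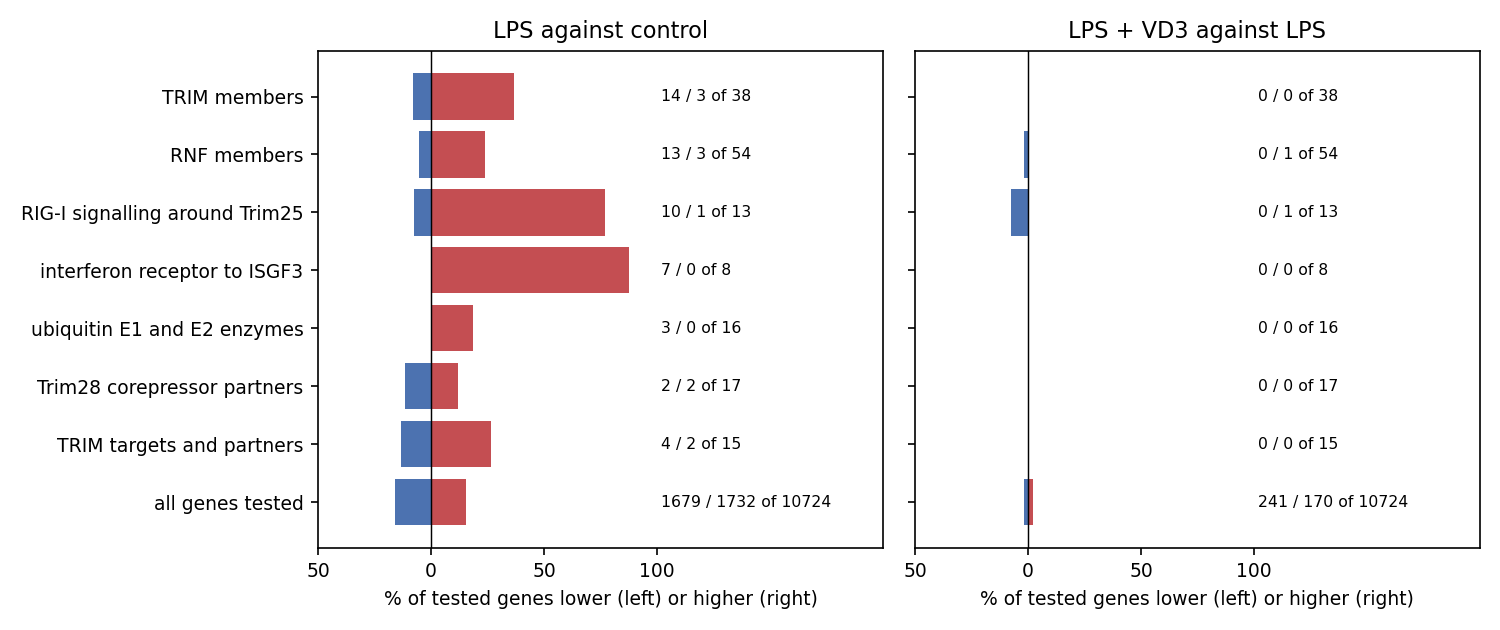
Percent of tested genes lower (blue, to the left) and higher (red, to the right) in LPS against control and in LPS + VD3 against LPS, for the TRIM genes, the RNF genes, 5 lists and all genes tested, with the counts higher / lower of tested printed beside each bar. With LPS the red bars of RIG-I signalling (10 of 13) and of the interferon receptor to ISGF3 (7 of 8) are the longest, and with VD3 added the TRIM genes have no bar.

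A comparison family was formed by the same kind of rule: the 54 genes named Rnf followed by digits, which also encode mostly RING ligases. LPS raised 13 of these (24.1%) and lowered 3 (5.56%), with a median of 0.14, next to 14 of 38 TRIM genes with a median of 0.26. The RNF count of 13 was 7 without control 2, and its count of 3 ran from 1 without control 1 to 7 without LPS 2. The difference between both families was not tested. With VD3 against LPS, 0 RNF genes were higher and 1 lower, against 8 and 9 without LPS 2.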

How the data were processed

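RNA-seq counts of 6 libraries (3 groups of 2, grouped by the labels) were analysed. The deposited table holds whole-number read counts per gene that the authors made. Of tools and builds, TopHat2, edgeR and mm10 are named in the submitters' processing notes, without versions; the sources used here do not give the counting program, annotation or strand setting. The deposited normalized table was not used.

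Genes were kept by filterByExpr of edgeR 4.0.16 (minimum count 10, minimum total 15; R 4.3.3), which left 10724 of 23413. Libraries were TMM-scaled, 3 group means were fitted to all 6 libraries by quasi-likelihood, and contrasts were adjusted by Benjamini-Hochberg over all genes at 0.05. The SE was taken as the size of a fold change over the root of its F statistic. The procedure was tested on simulated data. Members and lists were chosen with earlier results of these data known. Named with values were Trim21, Trim25, Trim30a, members past 0.05 in any comparison, the 4 highest others, and up to 4 genes per list by p. Gene positions, exon lengths and shared 50-base words came from GENCODE M21, windows from RefSeq. Counting intervals are exact at 95% and cover counting error only, since reads are not independent molecules. Alternatives were other scaling, filters, DESeq2 1.42.0, compared libraries alone, a replicate block, GC offsets and leaving out each library.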

Additional observations from a re-analysis of the deposited data

How the results depend on the processing

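The count of members higher in LPS against control was between 11 and 16, and in LPS + VD3 against control between 11 and 15, over the settings tried, with 14 and 11 in the main analysis. The count of members lower with LPS (3) was 8 without a scaling factor, 7 with GC offsets and 5 with a replicate block, and ran from 2 to 6 when 1 library was left out. In LPS + VD3 against LPS the count of lower members (0) was 2 with GC offsets (Trim21 and Trim36) and 1 with a replicate block (Trim47, adjusted p 0.0157), and ran from 0 to 8 when 1 library was left out; that of higher members (0) ran from 0 to 1. Lower members in LPS + VD3 against control (7) ran from 3 to 8. The replicate block moved the count of raised members with LPS from 14 to 15. By their source names, each LPS + VD3 library is tied to the LPS library of equal number; whether such libraries share mice, cells or a day is not stated, and only 2 numbers exist, so the block stayed an alternative. The replicate differences of the groups had correlations over genes of 0.115 to 0.221.

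RNF genes lower with LPS (3) were 12 without a scaling factor and 7 with GC offsets. Of all genes, 241 were higher and 170 lower in LPS + VD3 against LPS, against 123 and 46 with a filter of 1 count, 602 and 550 with a replicate block, and 479 and 375 with GC offsets.

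Some small fold changes of genes that were not called changed sign. Without a scaling factor, Mid1 was -0.21, Trim27 -0.23, Trim33 -0.04 and Trim41 -0.04 in LPS against control, and Trim14 was -0.13 in LPS + VD3 against control. When 1 library was left out, Mid1 ran from -0.26 to 0.34, Trim27 from -0.19 to 0.26 and Trim33 from -0.28 to 0.63 in LPS against control, and Trim30a from -0.20 to 0.03 in LPS + VD3 against LPS. The cause was not tested. With 2 libraries a group, the fit had 3 residual degrees of freedom and 7.01 prior ones, and Trim45, Trim46 and Trim30b rest on 42, 58 and 67 counts in all.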
